A study of Rattus norvegicus with 8 samples.

Results

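Ribosomal protein genes were taken as the genes whose only symbol in the platform annotation begins with Rpl or Rps and a digit, together with Rplp0 and Rpsa, and without the Rps6k kinases. This gave 43 of the 4736 genes named on the Affymetrix Rat Genome U34 array (version A), 29 of the large ribosomal subunit and 14 of the small one, read by 63 of 8740 probe sets. A probe set is a group of short probes whose signal intensities are combined to 1 value. Of the 43 genes, 42 passed the filter on dim probe sets and were tested, through 60 probe sets. Rps2-ps1, annotated as a processed copy, was too dim in both of its probe sets, as was 1 of the 2 probe sets of Rpl3l. Besides Rps2-ps1 and Rpl3l, the members include 4 other genes whose symbols mark copies or paralogues, namely Rpl19l4, Rpl36al1, Rps27l and Rps4x-ps9.

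The arrays measured total RNA from snap-frozen liver of 8 male Fischer 344 rats, 1 array per rat, all fed AIN 76A chow and labelled with an age of 6 without a unit. The 4 rats of the group Liver_D3T received D3T, a dithiolethione known to induce detoxification enzymes, by gavage at 0.3 mmol per kg in saturated sucrose on days 1, 3 and 5. The 4 rats of the group Liver_Control, called vehicle here, received 0.2 ml of saturated sucrose by gavage, on the same days as far as the labels say, which give no days for vehicle replicate 2. The single comparison asks which transcripts differ in liver after D3T, and the dose was given orally to whole animals. The RNA came from liver tissue rather than isolated cells, so every liver cell type could contribute to it.

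Ribosomes translate mRNA into protein and consist of ribosomal RNA and a fixed set of proteins, in principle 1 copy of nearly every protein in each subunit. Small subunit proteins lie around the path of the mRNA and the decoding centre, whereas large subunit proteins surround the peptidyl transferase centre, the exit tunnel of the new peptide and the stalk that recruits elongation factors. Most ribosomal protein mRNAs begin with a run of pyrimidines at their 5′ end (the 5′ terminal oligopyrimidine tract), through which mTOR signalling is known to control their translation. In liver the demand is high because hepatocytes secrete most plasma proteins. An array reads mRNA level alone, and neither ribosome number nor translation was measured.

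Ribosomal protein transcripts were on the whole slightly higher after D3T, and 7 genes rose and 1 fell past the threshold. Rps24, Rpl27a, Rpl23, Rpl35, Rpl31, Rpsa and Rpl7a rose by 1.32-fold to 1.52-fold, and the fall was 2.31-fold for Rpl19l4, a gene annotated as a copy of Rpl19. The 7 higher genes were 16.7% of the 42 tested, against 3.71% of all 3150 genes tested, and the 1 lower gene was 2.38%, against 5.84% of all genes (limma, Benjamini-Hochberg adjusted p under 0.05 over 5244 probe sets). The log2 fold change of 33 of the 42 genes was above 0, and their median was 0.21, which is 1.15-fold, beside a median of 0.03 over all genes. At the level of probe sets, 11 of 60 were higher (18.3%, against 4.20% of all probe sets) and 1 was lower (1.67%, against 6.48%). The changes were small, since 19 of the 42 genes differed by 1.2-fold or more in either direction and 2 by 1.5-fold or more. The spread between arrays was also small, with a median residual SD of 0.16 on the log2 scale over member probe sets and 0.31 over all probe sets. That spread is not particular to the members, since the 4 tested elongation factor genes, also bright, had a median of 0.15.

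For 17 of the 42 genes every D3T array was above every vehicle array (40.5%, against 7.97% of all genes), and for Rpl19l4 and Rpl36al1 every one was below (4.76%, against 11.4%). Of these 17 genes, 10 did not pass the threshold. An unadjusted p under 0.05 was found for 17 of the 42 genes (40.5%), beside 29.7% of all genes, and counts at this limit are read against that share. The members were also brighter, with a median log2 signal of 12.04 against 8.16 for all genes. With only the brightest 30% of probe sets tested, the shares were closer, 43.6% of 39 members and 38.8% of 1620 genes. In that fit 15 of the 17 members were higher, and 262 of the 628 genes. Past the adjusted threshold in the same fit, 10 of the 39 member genes were higher, and 229 of all 2622 probe sets. In the large subunit, 5 of 29 genes were higher and 1 lower, with a median log2 fold change of 0.21, and 12 had groups that did not overlap with D3T on top. In the small subunit, 2 of 13 tested genes were higher and 0 lower by limma, 4 had an unadjusted p under 0.05 (30.8%, near the 29.7% of all genes), the median was 0.20, and 5 had D3T wholly on top. The difference between the subunits was not tested. Without the copies and paralogues, 7 of 37 genes were higher and 0 lower, 15 had an unadjusted p under 0.05 (40.5%, against 29.7% of all genes), and the median was 0.21. The 5 tested copies and paralogues had a median of -0.40, with 0 higher and 1 lower.

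**Figure D1:**
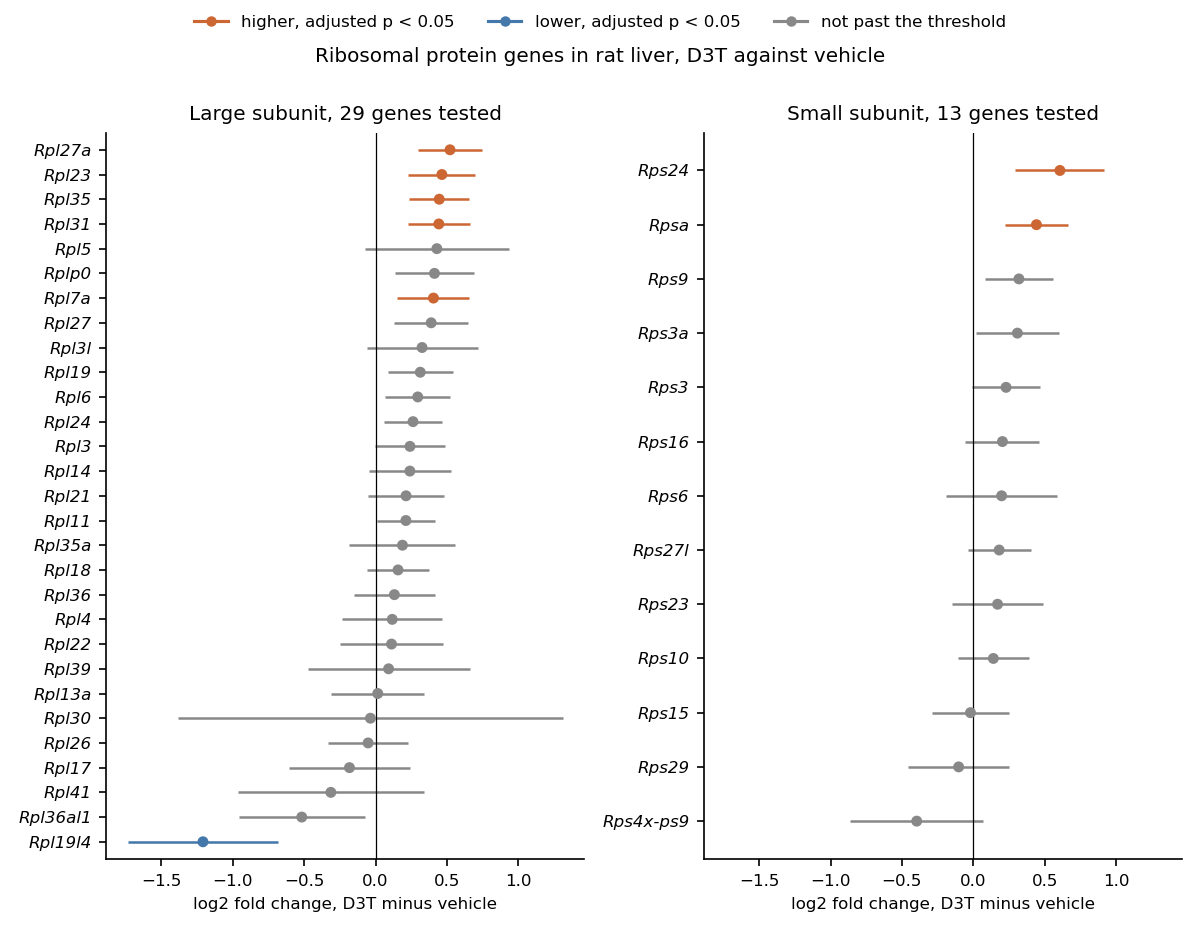
Log2 fold change (D3T minus vehicle) of each tested ribosomal protein gene on the horizontal axis, 1 gene per line, with 29 large subunit genes on the left and 13 small subunit genes on the right; points are limma estimates, bars their 95% confidence intervals, and colour marks the genes past an adjusted p of 0.05. Most points lie between 0 and 0.5, the 7 higher genes end at Rps24 with 0.61, and Rpl19l4 stands alone at -1.21.

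Among the large subunit genes, Rpl27a had signals of 7254, 6521, 7069 and 7722 in the vehicle arrays and 9623, 10784, 11067 and 9557 in the D3T arrays. Every D3T array was above every vehicle array, the nearest pair being D3T replicate 4 and vehicle replicate 4. The mean went from 7141 ± 496.6 to 10260 ± 780.0 (SD, n = 4 in each group here and below), with a log2 fold change of 0.52 ± 0.10 (SE, adjusted p = 0.012). Rpl27a encodes an rRNA-binding protein of the large subunit. Rpl35 protein sits at the exit of the peptide tunnel, where the signal recognition particle docks. Its signals were 5699, 5294, 4998 and 5628 in the vehicle arrays and 7400, 7537, 7525 and 6971 in the D3T arrays. All D3T values were higher than all vehicle values, and the vehicle values kept within a narrow band. The mean moved from 5405 ± 323.7 to 7358 ± 265.5, with a log2 fold change of 0.45 ± 0.09 (SE, adjusted p = 0.017), and the other Rpl35 probe set also passed (0.51 on the log2 scale, adjusted p = 0.0255). Rpl31 protein also lies near the tunnel exit, and its signals were 6023, 5476, 6308 and 6289 in the vehicle arrays and 7704, 8026, 8917 and 8115 in the D3T arrays. The lowest value of the set was that of vehicle replicate 2 and the highest that of D3T replicate 3, with no overlap. The mean moved from 6024 ± 388.0 to 8190 ± 515.7, with a log2 fold change of 0.44 ± 0.10 (SE, adjusted p = 0.0201).

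Rpl23 protein lies on the face of the large subunit that meets the small one and is known to bind Mdm2 when free. Its signals were 4343, 5064, 4068 and 4929 in the vehicle arrays and 6448, 6099.8, 6623 and 6142 in the D3T arrays. The groups did not overlap, although vehicle replicates 2 and 4 came closer to the D3T arrays than the other vehicle arrays did. The mean went from 4601 ± 473.7 to 6328 ± 250.3, with a log2 fold change of 0.46 ± 0.11 (SE, adjusted p = 0.0215). The other Rpl23 probe set, made from the same sequence record, did not pass (0.13 ± 0.12 on the log2 scale, adjusted p = 0.459). Rpl7a, a large subunit protein that binds ribosomal RNA, gave 5078, 5253, 4516 and 5243 in the vehicle arrays and 6834, 5590, 7191 and 7086 in the D3T arrays. D3T replicate 2 was well below the other D3T arrays but still above all vehicle arrays. The mean went from 5023 ± 347.0 to 6675 ± 738.8, with a log2 fold change of 0.41 ± 0.11 (SE, adjusted p = 0.0471). Among the 7 higher genes this call passed in the fewest alternatives, 9 of 21, and was lost among others with quantile normalization (adjusted p = 0.0742), median centring (0.0527) and no filter (0.0708), while the fold change stayed above 0 in all 21. Another probe set of the same record, matched to several symbols, did not pass (0.28, adjusted p = 0.155).

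In the small subunit, Rps24, needed for maturation of the small subunit rRNA, had signals of 485.1, 585.3, 464.5 and 605.5 in the vehicle arrays and 870.1, 721.7, 796.0 and 859.8 in the D3T arrays. No value was shared between the groups, with vehicle replicate 4 the highest vehicle array and D3T replicate 2 the lowest D3T array. The mean rose from 535.1 ± 70.6 to 811.9 ± 68.5, with a log2 fold change of 0.61 ± 0.14 (SE, adjusted p = 0.0237), the largest rise among the 42 representative probe sets. Another probe set of the same sequence record, which the annotation matches to several symbols, was much brighter, with means of 3709 in vehicle and 4975 in D3T. This brighter probe set did not pass and its groups overlapped (0.44 on the log2 scale, adjusted p = 0.0969). Rpsa protein is part of the small subunit and was first described as a precursor of a laminin receptor. Its signals were 5207, 4436, 4383 and 4389 in the vehicle arrays and 6351, 6143, 6157 and 6310.1 in the D3T arrays. The D3T arrays were nearly equal to each other, and vehicle replicate 1 lay above the other vehicle arrays but below all D3T arrays. The mean went from 4604 ± 402.9 to 6240 ± 105.7, with a log2 fold change of 0.44 ± 0.10 (SE, adjusted p = 0.0201), and the other Rpsa probe set passed as well (0.48 on the log2 scale, adjusted p = 0.012).

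Rpl19l4 went the other way. Its signals were 673.8, 444.5, 883.4 and 634.4 in the vehicle arrays and 354.5, 207.4, 325.7 and 245.2 in the D3T arrays. All D3T arrays were below all vehicle arrays, and vehicle replicate 3 was the highest and vehicle replicate 2 the lowest of a wide vehicle range. The mean went from 659.0 ± 180.0 to 283.2 ± 68.5, with a log2 fold change of -1.21 ± 0.24 (SE, adjusted p = 0.0121). Rpl19 itself had signals of 6717, 6774, 6364 and 7426 in the vehicle arrays and 7880.5, 9449.9, 8541 and 8061 in the D3T arrays. Here each D3T array was above each vehicle array, but the difference did not pass the threshold, with a log2 fold change of 0.31 ± 0.10 (SE, adjusted p = 0.0745). The 2 genes are read by different probe sets, and the name of the Rpl19l4 probe set marks sequence shared with other transcripts, so the assignment of its signal to Rpl19l4 rests on the platform annotation alone. With no filter on dim probe sets the fall of Rpl19l4 kept its size and no longer passed (adjusted p = 0.0565), and with the 3′ to 5′ actin ratio as a covariate it was -1.14 on the log2 scale with an adjusted p of 0.227.

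**Figure D2:**
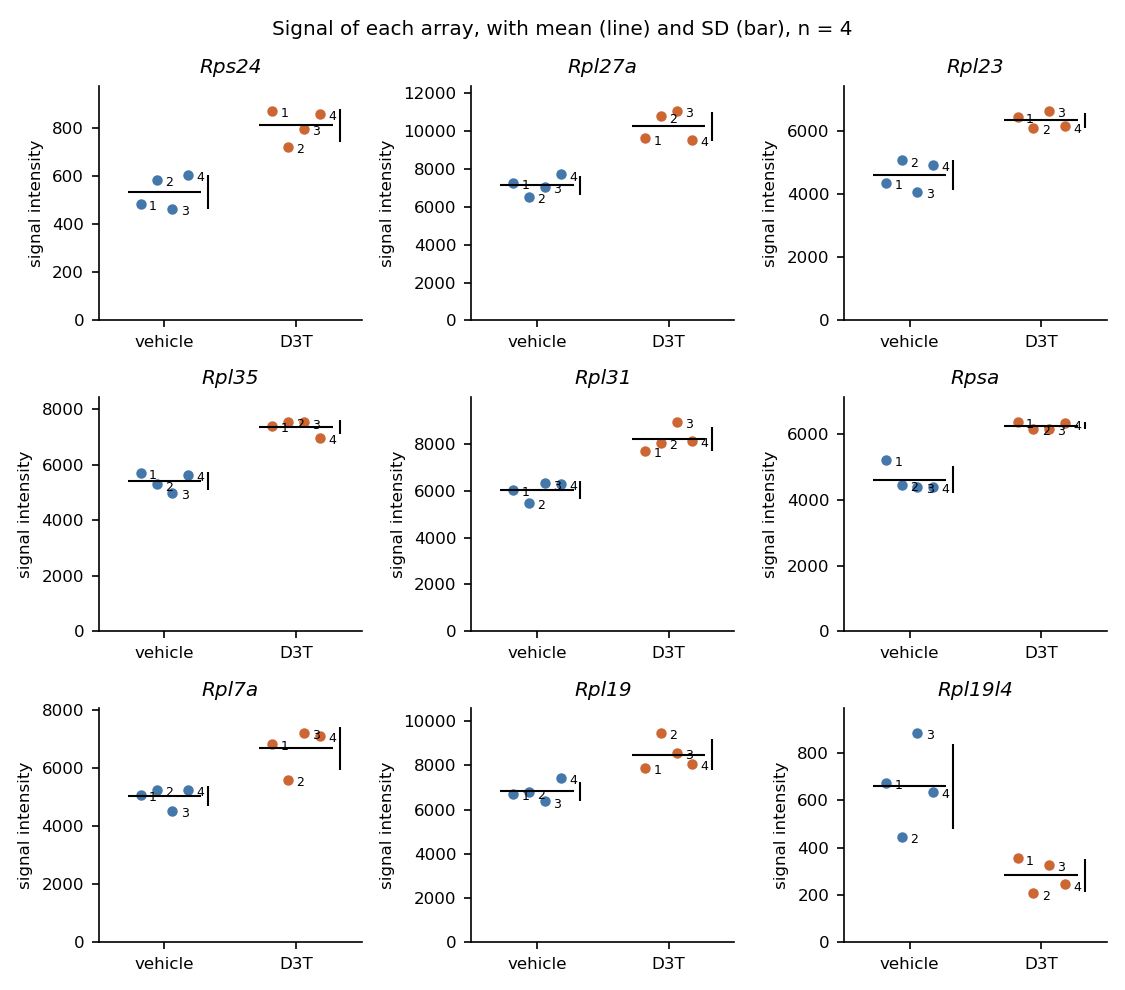
Signal intensity (vertical axis, linear, from 0, its own scale in each panel) of each array for the 8 genes past the threshold and Rpl19; points are arrays numbered by replicate, the horizontal line is the group mean and the vertical bar its SD (n = 4). In all 9 panels the D3T points lie on one side of the vehicle points, above for 8 genes and below for Rpl19l4.

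The sequences around the annotated starts of the 7 higher genes and of Rpl19 are shown because the tract that marks ribosomal protein mRNAs sits there. They run from 40 bases before the start to 20 bases after it, 5′ to 3′ on the gene's strand, from the RefSeq promoter table of the rat assembly GRCr8. Capitals mark every match to any of 3 short pyrimidine strings, searched on the given strand only and allowed to overlap. The first string is CTTTTC, while the second is written TTTCCT in the same direction, and the last of them is CTTTCC.
Rpl27a (chr1:172974533-172974592, plus strand): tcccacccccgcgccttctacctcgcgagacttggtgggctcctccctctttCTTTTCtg
Rpl35 (chr3:43165902-43165961, minus strand): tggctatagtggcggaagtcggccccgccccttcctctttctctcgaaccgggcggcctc
Rpl31 (chr9:49143071-49143130, plus strand): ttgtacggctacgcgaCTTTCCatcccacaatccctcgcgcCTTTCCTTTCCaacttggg
Rpl23 (chr10:83272165-83272224, minus strand): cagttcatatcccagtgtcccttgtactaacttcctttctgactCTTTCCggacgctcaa
Rpl7a (chr3:30637096-30637155, plus strand): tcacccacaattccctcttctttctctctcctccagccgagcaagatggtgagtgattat
Rps24 (chr16:96477-96536, plus strand): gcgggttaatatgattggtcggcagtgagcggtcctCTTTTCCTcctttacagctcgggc
Rpsa (chr8:128728839-128728898, plus strand): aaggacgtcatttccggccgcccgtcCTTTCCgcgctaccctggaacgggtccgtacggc
Rpl19 (chr10:83519024-83519083, plus strand): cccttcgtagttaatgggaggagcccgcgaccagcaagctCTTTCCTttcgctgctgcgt

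Of these, Rpl19 and Rpl31 carried a string within the first transcribed bases, Rpl27a and Rpl23 shortly after the start and Rps24 across it, Rpsa had one just before it, and Rpl35 and Rpl7a had long pyrimidine runs with none of the 3 strings in this window. The table held promoters for 37 of the 43 members, 36 matched by gene ID, among 33469 promoters of 300 bases each, 250 before the start and 50 after it; Rpl19l4 is not among them. Over the 300 bases, at least 1 of the strings was found in 59.5% of member promoters and 30.9% of all promoters. In the 60 bases shown, a window chosen after the longer one had been searched, 16 of 37 member promoters had one (43.2%), against 7.05% of all promoters. With 30 bases on either side of the start the member share was again 43.2%, against 6.82%. Among members other than copies and paralogues, 5 of 7 higher genes (71.4%) and 10 of 27 other genes (37.0%) had a string in the 60 bases, and over 300 bases the shares were 71.4% and 55.6%. These counts are small and were not tested. The annotated transcript began with C in 40.5% of member promoters and 24.1% of all promoters, and a mean of 6.43 of the first 10 transcribed bases were pyrimidines in members, against 4.8 overall.

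Other motifs were searched over the same 300 bases on both strands. The ETS core CCGGAAG, the binding motif of a family of factors common at housekeeping promoters, was in 9 of 37 member promoters (24.3%), against 8.75% of all promoters. It was in 3 of the 7 higher genes, Rpl27a, Rpl31 and Rpl35, and in 6 of the 27 other genes. The core of the antioxidant response element, TGACNNNGC, through which dithiolethiones are known to act on detoxification genes, was in 6 member promoters (16.2%), against 12.1% of all promoters. Among the higher genes only Rpl23 had it, starting 57 bases before the start. The E-box CACGTG was in 2 member promoters (5.41%), against 6.42% overall. A match is a match of letters, not a site known to be bound.

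Several members came close to the threshold without passing it. Rplp0, the base of the stalk that recruits elongation factors, had signals of 9305, 9203, 8449.5 and 8524 in the vehicle arrays and 12715, 9276, 12937 and 12699 in the D3T arrays. D3T replicate 2 lay among the vehicle arrays and the other D3T arrays were far above them, with a log2 fold change of 0.41 ± 0.12 (SE, adjusted p = 0.0578). Rpl27 gave 5664, 6775, 5406 and 5104 in the vehicle arrays and 7671, 7921, 6661 and 7712 in the D3T arrays. The highest vehicle array, replicate 2, slightly exceeded the lowest D3T array, with a log2 fold change of 0.39 ± 0.12 (SE, adjusted p = 0.0571). In the small subunit Rps9, which lies at the mRNA entry side, gave 6490.4, 5219.9, 6303 and 6378 in the vehicle arrays and 7593, 7349, 8209 and 7215 in the D3T arrays. Its groups did not overlap and vehicle replicate 2 was low (log2 fold change of 0.32 ± 0.11 (SE), adjusted p = 0.0803).

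Other members had estimates near these or near 0. Rpl6 passed in 1 of its 2 probe sets (0.48, adjusted p = 0.0195, log2 scale), while the brighter one had a log2 fold change of 0.30 and an adjusted p of 0.0894. Rps6, the small subunit protein phosphorylated by S6 kinases downstream of mTOR, also passed in 1 of 2 probe sets (0.39, adjusted p = 0.0426), and the brighter one had 0.20 ± 0.18 with an adjusted p of 0.472. Rpl5, another large subunit protein that binds Mdm2 when free, had a log2 fold change of 0.43 ± 0.23 and an adjusted p of 0.236, Rps3a had 0.31 ± 0.13, and Rps3 and Rps16 had 0.23 and 0.20. Rps27l and Rpl3l, paralogues of Rps27 and Rpl3, had 0.18 ± 0.10 and 0.33 ± 0.18, and the assignment of the first value to Rps27l rests on the platform annotation alone. The 16 tested members outside the naming rule ranged from -0.05 to 0.26, and 14 of them were above 0.

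Members with estimates below 0 were few. Rpl36al1, annotated as a paralogue of Rpl36a, gave 2471, 2381, 2524 and 2372 in the vehicle arrays and 2003, 1046, 1963 and 2044 in the D3T arrays. All D3T arrays were below all vehicle arrays, and D3T replicate 2 was far below the rest, with a log2 fold change of -0.52 ± 0.20 (SE, adjusted p = 0.118). Rpl41, the smallest ribosomal protein, had a log2 fold change of -0.31 ± 0.29, Rpl17 had -0.18 ± 0.19, and Rps4x-ps9, annotated as a processed copy of Rps4x, had -0.40 ± 0.21, with adjusted p of 0.498, 0.545 and 0.239. Rps29 and Rps15 had -0.10 ± 0.16 and -0.02 ± 0.12. The sign of these last values depended on the probe set and on single arrays, since the other Rps29 probe set gave 0.25 and the other Rps15 probe sets 0.19 and 0.72, none past the threshold. Of 15 genes with several tested probe sets, 12 had 1 sign in all of them, and Rpl21, named after its values were seen, was the third exception beside Rps15 and Rps29, with values from -0.39 to 0.21.

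Ribosomal protein genes have many near-identical processed copies, and 6 of the 8 genes past the threshold are represented by probe sets whose names mark shared sequence. Without such probe sets, 31 member genes could be tested, of which 5 were higher and 0 lower, with a median of 0.20 and 11 at an unadjusted p under 0.05 (35.5%, against 28.1% of all genes in that fit). Over all 3583 probe sets of that fit, 95 were higher. In the main fit the unmarked probe sets past the threshold were those of Rpl31, Rpl35, Rps24, Rpsa and Rps6, and Rps6 is not 1 of the 7 higher genes. Rpl27a and Rpl7a have only marked probe sets and could not be tested, and the unmarked probe set of Rpl23 did not pass in the main fit. That fit also left out names ending in _i_at or _r_at, which mark incomplete probe sets or relaxed probe selection rather than shared sequence. A further 37 probe sets were matched by the annotation to several symbols, all of them ribosomal proteins or bare locus numbers. Another 3 also matched other genes and are not counted below (log2 fold changes of 0.26, 0.28 and 2.21, none past the threshold). All of these fall outside the selection and no gene is named from them. Of the 37, 36 were tested, and 7 were higher (19.4%, against 4.20% of all probe sets) and 0 lower by limma. An unadjusted p under 0.05 was found for 19 of the 36 (52.8%, against 29.3% of all tested probe sets). Of the 36, 35 had a log2 fold change above 0, and their median was 0.26, with a range from -0.69 to 0.90.

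**Figure D3:**
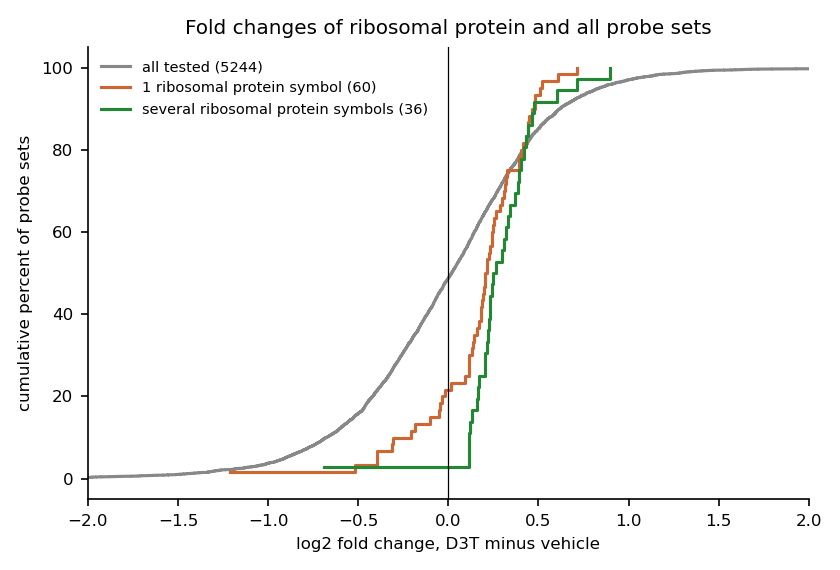
Cumulative percent of probe sets (vertical axis) up to a given log2 fold change, D3T minus vehicle (horizontal axis, drawn from -2 to 2), for all 5244 tested probe sets, the 60 with 1 ribosomal protein symbol and the 36 with several. The curves of the ribosomal protein probe sets are steeper and cross the middle at 0.21 and 0.26, whereas that of all probe sets crosses it at 0.02.

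The shift was present in each D3T array. Relative to each gene's vehicle mean, the median over the 42 genes was 0.02, -0.14, 0.02 and 0.08 in vehicle replicates 1 to 4 and 0.21, 0.19, 0.31 and 0.25 in D3T replicates 1 to 4. All D3T medians were above all vehicle medians. Vehicle replicate 2 was the lowest vehicle array for 25 of the 42 genes, and D3T replicate 2 was the lowest D3T array for 21. In the large subunit the array medians ran from -0.09 to 0.06 in vehicle and from 0.18 to 0.31 in D3T, and in the small subunit from -0.21 to 0.12 and from 0.16 to 0.32. The share of the summed signal of all tested probe sets that came from the 42 representative probe sets was 2.12% to 2.50% in vehicle and 2.41% to 2.72% in D3T, so these shares overlapped. Without vehicle replicate 2 the median log2 fold change of the 42 genes was 0.15 and 8 genes were higher, and without D3T replicate 2 it was 0.25 with 8 higher.

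**Figure D4:**
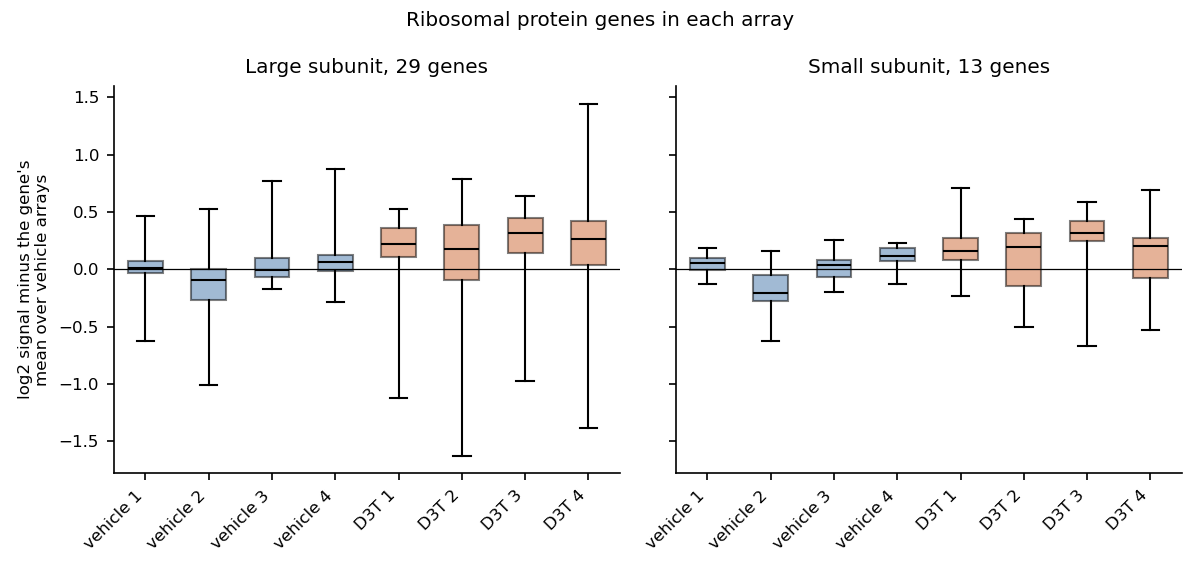
Log2 signal minus the gene's mean over the vehicle arrays (vertical axis) for 29 large subunit genes (left) and 13 small subunit genes (right) in each of the 8 arrays; the line is the median, the box the middle 50% of genes and the whiskers the lowest and highest gene. Vehicle replicate 2 has the lowest median in both subunits, and all D3T medians lie above all vehicle medians.

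The number of calls rested on single arrays and on the fit more than the median did. With no intensity trend in the variance, 2 of the 42 genes were higher. Leaving out vehicle replicate 1 left 3 genes higher and leaving out vehicle replicate 3 left 2. With D3T replicate 1 left out the number was 3, and with D3T replicate 4 left out it was 4. Over all tested probe sets the number higher fell in the same fits, so the drop was not limited to ribosomal protein genes. From 220 in the main fit it went to 124 with no intensity trend. It was 109 and 100 without vehicle replicates 1 and 3, and 102 and 105 without D3T replicates 1 and 4. Without vehicle replicate 2 it rose to 315. Rpl27a and Rpl19l4 passed whichever array was left out, Rpl31 and Rpl35 in 7 of the 8 cases, Rpl23 in 5, Rps24 and Rpsa in 4 and Rpl7a in 2. The ratio of 3′ to 5′ actin signal, a measure of RNA integrity and labelling that rises when 5′ ends are lost, was also lower on average after D3T. It was 1.45 to 1.59 in vehicle and 1.17 to 1.47 in D3T (exact two-sided permutation test over 70 assignments, p = 0.0571, adjusted p = 0.143 over 5 measures, smallest possible p = 0.0286). With the log2 of this ratio as a covariate, the median over the 42 genes was 0.25, while 0 genes were higher and 0 lower by limma, 12 having an unadjusted p under 0.05 (28.6%, against 12.4% of all genes in that fit), of which 11 were higher. The 100 brightest probe sets held 28.2% to 34.9% of the signal in vehicle and 33.04% to 38.9% in D3T (exact permutation p = 0.0571). The part of this share in the result was not tested.

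Summed signals of the marker lists for macrophages, red cells and lymphocytes did not overlap between the groups, although no gene of these lists passed the threshold. Among all single genes, 7.97% had every D3T array above every vehicle array and 11.4% had every one below. The summed signal of 5 of 6 listed hepatocyte markers was 117284 to 182218 in vehicle and 152514 to 213790 in D3T, and 1 of them, Fgb, was lower past the threshold. That of 3 of 6 Kupffer cell and macrophage markers was 1851 to 2486 and 1284 to 1838, and that of 2 of 5 red cell markers 10707 to 15142 and 7124 to 9940. Most of the red cell sum came from Hbb, with means of 12130 in vehicle and 8478 in D3T. For lymphocytes, 4 of 6 markers summed to 386 to 447 and 541 to 603. Most of the lymphocyte sum came from Cd4, with means of 216.6 in vehicle and 295.6 in D3T, and Ptprc, with 134.5 and 212.0. For stellate cells 4 of 5 markers summed to 1347 to 2644 and 1000 to 1495, with Col3a1 lower past the threshold. Of the proliferation genes 4 of 5 were measured, with sums of 662 to 964 and 773 to 1514, and Top2a was higher past the threshold. Endothelial markers, 3 of 5 measured, summed to 356 to 508 and 233 to 443, and cholangiocyte markers, 2 of 4 measured, to 190 to 288 and 211 to 296. Cd3g and Cd8a, also in the lymphocyte list, were too dim to be tested, with vehicle means of 32.32 and 38.43 and D3T means of 35.95 and 25. In bulk tissue fewer cells of a type and less RNA per cell cannot be told apart, and the part of cell composition in the ribosomal protein values was not tested.

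Lists of translation factors, mitochondrial ribosomal proteins and genes grouped under ribosome assembly had other medians. Of 4 elongation factor genes 0 were called and 0 had an unadjusted p under 0.05 by limma, with Eef2, which moves the ribosome along the mRNA, at 0.16 ± 0.09 and Eef1a1, which delivers aminoacyl-tRNA, at 0.03 ± 0.13 on the log2 scale, and the median was 0.03. Of 19 initiation factor genes 0 were called and 7 had an unadjusted p under 0.05 (36.8%, against 29.7% of all genes), with a median of -0.14. The brightest was Eif4ebp1, the repressor of cap-dependent initiation that mTOR controls, at 0.39 (adjusted p = 0.115), and 1 of its 3 probe sets had the opposite sign. Of 14 mitochondrial ribosomal protein genes 0 were called, 1 had an unadjusted p under 0.05 (7.14%), and the median was -0.12, with Mrpl52 at -0.16 (adjusted p = 0.662). Of 11 genes listed under ribosome assembly and the nucleolus 1 was higher (9.09%, against 3.71% of all genes) and 0 lower. In this list 3 had an unadjusted p under 0.05 (27.3%, no more than among all genes), and the median was -0.42. The 1 higher gene, Mdm2, is not itself an assembly factor and encodes the ubiquitin ligase that free ribosomal proteins bind. Mdm2 had a mean of 205.4 ± 26.0 in vehicle and 343.0 ± 52.9 in D3T (0.74 ± 0.18 on the log2 scale, adjusted p = 0.0296). No test compared these lists with the ribosomal proteins.

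Of 9 genes of the S6 kinase and mTOR list, 2 were lower (22.2%, against 5.84% of all genes) and 0 higher past the threshold, and 3 had an unadjusted p under 0.05 (33.3%, against 29.7%). Tsc2, whose protein restrains mTOR by acting on Rheb, averaged 200.8 ± 33.1 in vehicle and 83.6 ± 30.9 in D3T (-1.32 ± 0.29 on the log2 scale, adjusted p = 0.0191). Rheb, the small GTPase that activates mTOR, averaged 789.1 ± 79.5 and 562.7 ± 38.4 (-0.48 ± 0.13 on the log2 scale, adjusted p = 0.0409). Rps6kb1, which encodes an S6 kinase, had 0.22 on the log2 scale and an adjusted p of 0.400, and 1 of its 2 probe sets had the opposite sign. Rack1, a scaffold protein on the head of the small subunit whose symbol lies outside the selection, rose from 1769 ± 36.4 to 2951 ± 136.1, with a log2 fold change of 0.74 ± 0.10 and an adjusted p of 0.00158, and all its D3T arrays were above all vehicle arrays. Naca, a subunit of the nascent chain complex at the tunnel exit, had -0.23 ± 0.11 and an adjusted p of 0.207.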

How the data were processed

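The deposited values are signal intensities, 1 per probe set and array, made by the authors with MAS5 per the submitters' processing notes. No source used here gives the version or the scaling target. The 2% trimmed means of the arrays lay between 500.8 and 501.0, which shows scaling to a common level. Precision depends on the 4 arrays per group, since no counts underlie an intensity. Groups and replicate numbers came from the sample titles, and the labels give 1 rat per array.

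All arrays were set to 1 trimmed mean (2% trimming, 500), signals under the 20th percentile, 20.3, were set to that value, and log2 values were used. After 59 of 8799 probe sets, the controls, were left out, the 60% of the rest with the highest mean over all arrays were tested with limma 3.58.1 in R 4.3.3 (lmFit, eBayes with an intensity trend). A gene was represented by the brightest tested probe set among those matched to its symbol alone. Fold changes are ratios of geometric means. Symbols came from the platform annotation, and 42 of 43 member IDs were found in the RefSeq gene table. The fit was tested on simulated data.

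The members, the lists and the alternatives were chosen with earlier results of these data known. Genes were named where a probe set passed the threshold, for the 3 brightest members of each subunit, for the 3 largest fold changes in each direction among those not past it, and for copies and paralogues. Related lists gave their members past the threshold or the brightest one, and Eef1a1, Rps6kb1, Naca, Cd3g, Cd8a, Cd4, Ptprc, Hbb, Fgb, Col3a1 and Top2a were named after their values were seen. Alternatives covered scaling, floor, filter, variance prior, array weights, replicate block, actin ratio, shared-sequence probe sets, averaging of a gene's probe sets and leaving out each array.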

Additional observations from a re-analysis of the deposited data

Results flagged for a closer look

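Within the groups of 4 arrays, the highest or lowest array stood apart from the other 3 in 7 of 84 cases, taking each of the 42 genes in each group and asking whether its gap to the nearest array passed Dixon's critical share of the group's range. Chance gives about 1 such case in 20. Vehicle replicate 2 was the array in 4 cases. It was low for Rpl14 (883.1 against 1137 to 1189, a gap of 0.831 of the range), for Rps4x-ps9 (556.9 against 947.7 to 1024, 0.836) and for Rps9 (5219.9 against 6303 to 6490.4, 0.852), and high for Rpl5 (242.8 against 143.0 to 154.6, 0.884). D3T replicate 2 was low for Rplp0 (9276 against 12699 to 12937, 0.935) and for Rpl36al1 (1045.7 against 1963 to 2044, 0.919). Vehicle replicate 1 was high for Rpsa (5207 against 4383 to 4436, 0.936).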

How the results depend on the processing

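The median log2 fold change of the 42 genes stayed above 0 in every alternative run, between 0.15 and 0.25 when single arrays were left out. Counts of calls moved more. Ribosomal protein genes called higher fell from 7 to 2 with no intensity trend and to 0 with the actin ratio as a covariate; with single arrays left out they ranged from 2 to 8, and their probe sets, 11 higher at first, gave 3, 0 and a range from 3 to 12. Without probe sets marked as shared, 5 ribosomal protein probe sets were higher. The 1 lower gene and probe set, Rpl19l4, was lost (0) with no filter, with the actin ratio and without shared-sequence probe sets, and the count ranged from 1 to 2 with single arrays left out. Over all probe sets, 220 higher and 340 lower became 131 and 178 with no filter, 124 and 209 with no trend, 24 and 11 with the actin ratio and 95 and 166 without shared-sequence probe sets, and ranged from 100 to 315 higher and 140 to 380 lower with single arrays left out. Fewer probe sets were tested without the shared ones and more without the filter; otherwise the cause was not tested.

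With the replicate number as a block, 0 ribosomal protein genes and 0 of their probe sets were higher by limma, while 15 genes (35.7%, against 24.8% of all genes in that fit) had an unadjusted p under 0.05, 13 of them higher; 1 gene was lower, and over all probe sets 99 were higher and 191 lower. The deviations of same-numbered arrays from their group means correlated at 0.06, -0.09, 0.01 and -0.20 for numbers 1 to 4. These values over all tested probe sets show no pairing, but they cannot exclude one that touches only part of them. Replicate 2 was the lowest array of its group for 25 of the 42 genes in vehicle and for 21 in D3T. Whether the numbers pair the rats is not known.

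The estimate of Rps15, -0.02, turned to 0.10 with the actin ratio, to 0.30 with the mean of its probe sets, and with single arrays left out ranged from -0.0994 to 0.0435, above 0 without vehicle replicates 1 (0.0111) or 4 (0.02) or D3T replicates 2 or 4 (4e-04). That of Rps29, -0.10, turned to 0.11 and 0.0729, and with single arrays left out ranged from -0.243 to 0.03, above 0 without D3T replicate 2.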
